A study of Mus musculus with 6 samples.

Results

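Aminoacyl-tRNA synthetases are the enzymes that join each amino acid to its transfer RNA, the step that fixes the genetic code. The 35 genes described here were chosen by symbol, with 20 genes for cytosolic enzymes and 15 genes, whose symbols end in 2, for mitochondrial enzymes. Each symbol matched 1 of the 37867 gene models in the authors' table, and all 35 were among the 13834 models that the authors tested. The RNA came from mouse thymocytes that carry both CD4 and CD8, called double-positive or DP cells, an intermediate stage of T cell development in which cells test the receptor they have just assembled. The knockout (KO) mice, miR181a1/b1 -/- in the labels, lack the microRNA genes miR-181a1 and miR-181b1, the wild type (WT) mice carry them, and all mice were of the C57bl6 strain. The KO group and the WT group had 3 DP populations each, sorted to over 95% purity, for 6 libraries in all, and the labels do not give the age of the mice, the cells in which the deletion was made or whether the populations came from separate animals. The comparison asks which transcripts differ in DP cells that develop without these microRNAs.

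The cytosolic enzymes supply the ribosomes that read nuclear messenger RNAs, and the mitochondrial enzymes, imported after their synthesis in the cytosol, supply the separate ribosomes that make a few subunits of the respiratory chain. Synthetases fall into class I and class II, which have unrelated catalytic folds. In animals, some cytosolic enzymes are held in a multi-synthetase complex on scaffold proteins, and the others work outside it. Gars and Kars are background exceptions to the naming, since each encodes a cytosolic and a mitochondrial form, and both were counted as cytosolic.

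The authors' table gives 1 FPKM value (fragments per kilobase of transcript, scaled to library size) per genotype, so the spread between populations and the depth of the libraries are unknown, and no SD is given. Log2 ratios are those of KO over WT FPKM. Each error is the standard error (SE) implied by the deposited test statistic, with a median of 0.35 over all tested models. A gene is called lower or higher where its deposited q, the p-value adjusted over all tested models, is under 0.05. How the deposited statistic treats the 3 populations is not stated in the labels or the table, so it is unknown whether it measures the spread between populations. All 7 DP markers examined were abundant, at 162 to 1241 FPKM in KO cells and 134 to 1683 FPKM in WT cells, and none of them was called. The summed levels of 4 markers of other cells each were lower in KO cells: 2.71 FPKM in KO cells against 4.80 FPKM in WT cells for myeloid cells, and 0.959 FPKM in KO cells against 2.36 FPKM in WT cells for thymic epithelium. For erythroid cells, 3 markers had a row, and they summed to 0.670 FPKM in KO cells against 1.35 FPKM in WT cells. The myeloid marker Cd14 was listed at 0 in both genotypes. Of these 11 markers with a row, only Lyz2, Itgam, Epcam and Hbb-b1 were tested. Itgam (1.02 FPKM in KO cells, 2.11 FPKM in WT cells) and Epcam (0.932 FPKM in KO cells, 2.30 FPKM in WT cells) were called lower, beside 15.3% of all tested models. Neither Itgam nor Epcam was called after removal of the trend on GC content and length described below. Of B cell markers, Cd79b had 15.7 FPKM in KO cells and 20.1 FPKM in WT cells and was not called, while Ms4a1 had 0.0105 FPKM in KO cells and 0.0529 FPKM in WT cells and was not tested. The part of other cells in the synthetase results was not tested. The levels of the deleted microRNAs were not analysed here, so the deletion itself was not checked.

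The products of the deleted genes are shown because a microRNA finds its targets by its seed, bases 2 to 8, which pairs with sites in messenger RNAs. In these mature sequences from RefSeq (GRCm38.p6, both on the plus strand, miR-181a-5p at chr1:137966468-137966490 and miR-181b-5p at chr1:137966650-137966673), capitals mark the seed.

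mmu-miR-181a-5p: aACAUUCAacgcugucggugagu

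mmu-miR-181b-5p: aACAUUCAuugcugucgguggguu

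Both carry the seed ACAUUCA, whose pairing site in a transcript reads TGAATGT. None of the 34 synthetase genes with a usable reference transcript had this site, or its shifted form GAATGTA, in its 3′ untranslated region, against 21.0% of 10068 tested coding genes (2116 genes). The 6 letters shared by both forms, GAATGT, a weaker kind of match, were the only kind in 6 of the 34 (Tars, Yars, Hars2, Iars2, Lars2 and Nars2, none of them called) and in 11.7% of the 10068 genes. The synthetase regions were short, with a median of 266 bases against 943.5 bases over those 10068 genes. The absence of these letters from 1 reference transcript per gene says nothing about other kinds of pairing or other isoforms.

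In KO DP thymocytes, 6 of the 35 synthetase genes were called lower and none was called higher. The called genes were Vars, Farsa and Mars of the cytosolic enzymes and Aars2, Sars2 and Fars2 of the mitochondrial enzymes. These 6 are 17.1% of the 35, and over all tested models 17.1% were called in either direction, 15.3% lower and 1.79% higher. The share of synthetases called lower was therefore near that of all models. A further 24 synthetase genes had ratios under 0 without a call, and 5 had ratios over 0. The median log2 ratio of the 35 was −0.38, beside −0.17 over all 13780 tested models with a finite ratio, 59.6% of which were under 0. The cells were measured in bulk, and fewer cells that express a gene cannot be told apart from less RNA per cell.

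**Figure D1:**
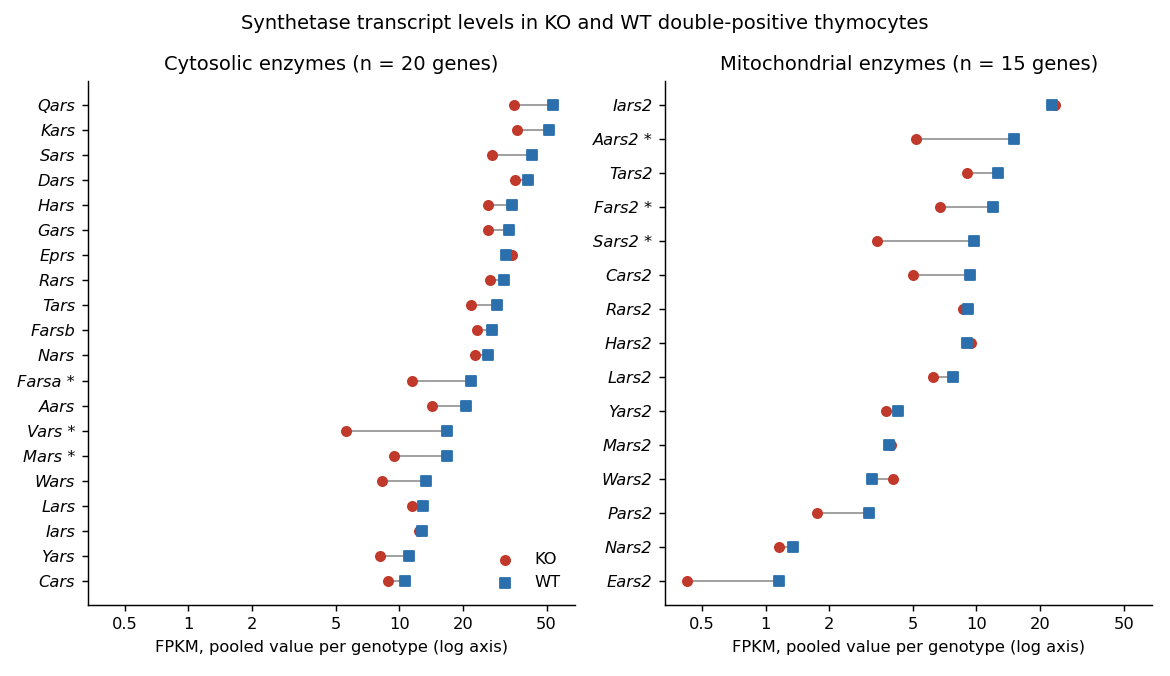
FPKM of each synthetase gene on a log axis, KO and WT, with the cytosolic and the mitochondrial enzymes in separate panels and 1 pooled value per genotype. Most cytosolic enzymes sit above most mitochondrial ones, and Vars, Aars2, Sars2 and Ears2 have the widest gaps between genotypes.

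The cytosolic enzymes were the more abundant, with a median level of 22.3 FPKM in KO cells and 26.9 FPKM in WT cells. The mitochondrial enzymes had a median level of 5.01 FPKM in KO cells and 9.03 FPKM in WT cells. Cytosolic levels ran from 5.62 to 36.1 FPKM in KO cells and from 10.6 to 53.7 FPKM in WT cells. Mitochondrial levels ran from 0.425 to 23.5 FPKM in KO cells and from 1.16 to 22.8 FPKM in WT cells. The summed cytosolic level was 406 FPKM in KO cells against 539 FPKM in WT cells, 24.6% lower in KO. The summed mitochondrial level was 92.0 FPKM in KO cells against 124 FPKM in WT cells, 25.9% lower in KO. The sum over the whole table was 17.6% lower in KO. With Iars2 included, the compartments thus had similar relative differences in their sums. Iars2, at 23.5 FPKM in KO cells and 22.8 FPKM in WT cells, was not lower in KO, and its level is uncertain for the reason given below. Without Iars2 the relative difference in the mitochondrial sum would be larger.

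Among the cytosolic enzymes, Vars stood furthest apart. It encodes the valyl-tRNA synthetase, a class I enzyme outside the complex, and its model lies at chr17:35138080-35153271 in mm9. Vars had 5.62 FPKM in KO cells against 16.9 FPKM in WT cells. It fell to the lowest level of any cytosolic synthetase in KO cells, while 6 of the others had lower values than Vars in WT cells. The log2 ratio was −1.59 (SE 0.28), with q = 8.23e-07 in the authors' deposited table.

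Farsa encodes the catalytic alpha subunit of the cytosolic phenylalanyl-tRNA synthetase, a class II enzyme, and its model lies at chr8:87380922-87393155. Farsa had 11.5 FPKM in KO cells against 21.8 FPKM in WT cells, a log2 ratio of −0.92 (SE 0.33), and was called lower with q = 0.0357 in the authors' deposited table. Its partner Farsb, the beta subunit of the same enzyme, had 23.4 FPKM in KO cells and 27.6 FPKM in WT cells. The Farsb log2 ratio of −0.24 (SE 0.26) was within its error, with q = 0.623 in the authors' deposited table. The difference between the subunits' ratios was not tested.

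Mars encodes the methionyl-tRNA synthetase, a class I enzyme of the complex that also charges the initiator transfer RNA, and its model lies at chr10:126727865-126748695. Mars had 9.47 FPKM in KO cells against 16.9 FPKM in WT cells, a log2 ratio of −0.83 (SE 0.29), and was called lower with q = 0.0282 in the authors' deposited table. Ddit3 is a stress-induced transcription factor whose model covers the same 20830 bases of the table as that of Mars. Ddit3 had 5.29 FPKM in KO cells against 16.0 FPKM in WT cells, with q = 0.0952 in the authors' deposited table. How reads of overlapping genes were divided is not stated in the labels or the table, so Mars is an uncertain call.

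The other 17 cytosolic enzymes were not called. Qars, the glutaminyl enzyme and the most abundant synthetase of WT cells, had 35.1 FPKM in KO cells against 53.7 FPKM in WT cells (q = 0.0773 in the authors' deposited table). Wars, the tryptophanyl enzyme, known as an interferon-induced gene, had 8.27 FPKM in KO cells against 13.4 FPKM in WT cells (q = 0.0883 in the authors' deposited table). Both would be called at a q of 0.10. Kars, the lysyl enzyme, was the most abundant synthetase of KO cells, with 36.1 FPKM in KO cells and 51.4 FPKM in WT cells. Sars, the seryl enzyme, had 27.6 FPKM in KO cells and 42.5 FPKM in WT cells, with q = 0.101 in the authors' deposited table.

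The cytosolic enzymes with the highest ratios all belong to the complex. Eprs, which carries the glutamyl and the prolyl enzyme on a single protein, had 34.5 FPKM in KO cells and 32.0 FPKM in WT cells, and its log2 ratio of 0.10 (SE 0.24) was the only cytosolic one over 0. Iars, the isoleucyl enzyme, had 12.5 FPKM in KO cells and 12.9 FPKM in WT cells. Lars, the leucyl enzyme, had 11.5 FPKM in KO cells and 13.0 FPKM in WT cells. In each of these the gap was smaller than its SE. Cars, the cysteinyl enzyme, which had the lowest level of the 20 in WT cells, had 8.89 FPKM in KO cells and 10.6 FPKM in WT cells. The log2 ratios of Cars and of Aars, Dars, Gars, Hars, Nars, Rars, Tars and Yars, the enzymes for alanine, aspartate, glycine, histidine, asparagine, arginine, threonine and tyrosine, lay between −0.54 for Aars and −0.20 for Dars. Cars and Dars had the widest errors of all members, SEs of 0.78 and 0.69, and the Cars model shares its span with Nap1l4, a histone chaperone gene at 54.1 FPKM in KO cells and 64.8 FPKM in WT cells.

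**Figure D2:**
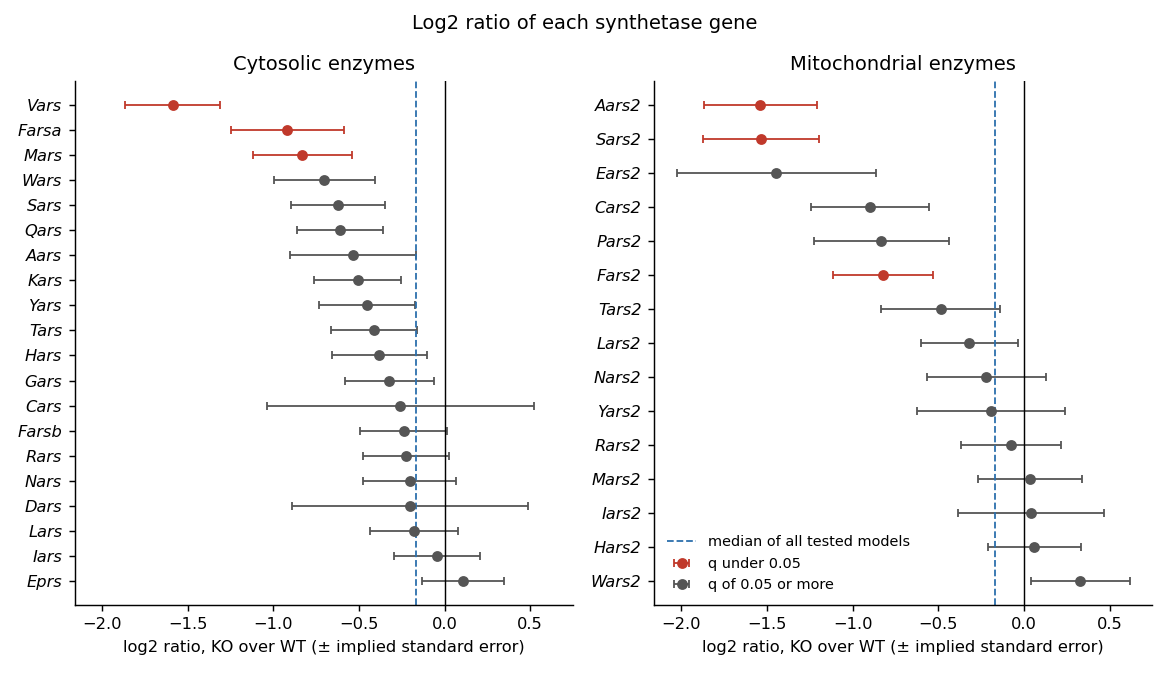
Log2 ratio of KO over WT FPKM for each synthetase gene with the implied SE as a bar, cytosolic enzymes left and mitochondrial enzymes right, sorted from the lowest ratio. Red marks a deposited q under 0.05, and the dashed line is the median of all tested models at −0.17. In each compartment 3 genes are red, and 30 of the 35 points lie left of 0.

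Of the 15 mitochondrial enzymes, 3 were called lower, all of class II. Aars2, the alanyl enzyme at chr17:45643789-45657792, had 5.16 FPKM in KO cells against 15.0 FPKM in WT cells. Its log2 ratio was −1.54 (SE 0.33), with q = 8.65e-05 in the authors' deposited table. It was the second most abundant mitochondrial synthetase in WT cells, while 6 of the others had higher levels in KO cells.

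Sars2, the mitochondrial seryl enzyme at chr7:29527014-29538874, had 3.37 FPKM in KO cells against 9.75 FPKM in WT cells. Its log2 ratio was −1.53 (SE 0.34), with q = 0.000153 in the authors' deposited table. Fars2, the mitochondrial phenylalanyl enzyme at chr13:36209279-36629462, had 6.74 FPKM in KO cells against 11.9 FPKM in WT cells. Its log2 ratio was −0.82 (SE 0.29), with q = 0.0317 in the authors' deposited table. Unlike the cytosolic enzyme with its paired subunits, Fars2 works as a single chain.

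Among the 12 mitochondrial enzymes without a call, Ears2, the glutamyl enzyme, had the lowest level, 0.425 FPKM in KO cells against 1.16 FPKM in WT cells. Its log2 ratio of −1.45 was nearly as low as those of Aars2 and Sars2, but its SE of 0.58 was wider, and q was 0.0680 in the authors' deposited table. Cars2, the cysteinyl enzyme, had 5.01 FPKM in KO cells against 9.34 FPKM in WT cells, with q = 0.0517 in the authors' deposited table. Pars2, the prolyl enzyme, had 1.74 FPKM in KO cells against 3.10 FPKM in WT cells, with q = 0.139 in the authors' deposited table. These 3 lay low without passing the threshold.

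Wars2, the tryptophanyl enzyme, had the highest ratio of all 35, with 4.03 FPKM in KO cells and 3.20 FPKM in WT cells, a log2 ratio of 0.33 (SE 0.29) and q = 0.527 in the authors' deposited table. Hars2, the histidyl enzyme, had 9.42 FPKM in KO cells and 9.03 FPKM in WT cells. Iars2, the isoleucyl enzyme, was the most abundant mitochondrial synthetase, with 23.5 FPKM in KO cells and 22.8 FPKM in WT cells. The Iars2 model shares its span of 82726 bases with Rab3gap2, a gene for a Rab GTPase regulator at 8.90 FPKM in KO cells and 9.67 FPKM in WT cells, so its level is uncertain in the same way as that of Mars. Mars2, the methionyl enzyme, had 3.93 FPKM in KO cells and 3.83 FPKM in WT cells. All 4 ratios over 0 in the mitochondrial list belong to these genes, and none passed the test. The other 5, Tars2, Lars2, Nars2, Yars2 and Rars2, had log2 ratios between −0.49 for Tars2 and −0.08 for Rars2.

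Set side by side, 3 of 20 cytosolic and 3 of 15 mitochondrial enzymes were called lower. The median log2 ratio was −0.40 for cytosolic and −0.32 for mitochondrial enzymes, a difference of −0.08, small beside the range within either list. Ratios under 0 were found for 19 of 20 cytosolic and 11 of 15 mitochondrial enzymes. The mitochondrial ratios were the more spread, with an SD across genes of 0.62 over 14 genes, beside 0.37 over the 20 cytosolic genes. The difference of the medians turned to 0.09 where members with a mean under 5 FPKM were left out. The compartments were therefore not separated by their ratios.

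The enzymes were also grouped by class and by membership of the complex. In class I, 2 of 18 enzymes were called lower with a median log2 ratio of −0.24, and in class II 4 of 17 with a median of −0.49. Eprs, which carries the glutamyl and the prolyl enzyme, was counted in class I alone, although the prolyl enzyme Pars2 was counted in class II. Of the 8 enzymes of the multi-synthetase complex, Mars alone was called lower, and their median log2 ratio was −0.21. Of the 12 cytosolic enzymes outside the complex, 2 were called lower, with a median of −0.43. Over all tested models 15.3% were called lower, and no test of the difference between these groups was run.

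Genes for the same amino acid in both compartments form 16 pairs, counting Farsa and Farsb each with Fars2 and Eprs with both Ears2 and Pars2. In 15 of the 16 pairs the cytosolic gene had the higher FPKM in both genotypes, and the exception was Iars with Iars2, whose level is uncertain. The mitochondrial gene had the lower ratio in 9 pairs and the cytosolic gene in 7. Farsa with Fars2 was the only pair in which both genes were called. The phenylalanyl pair had nearly equal ratios, with a difference of −0.10 (SE 0.44).

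Other pairs differed in which gene was called. Aars, the cytosolic alanyl enzyme, had 14.3 FPKM in KO cells and 20.7 FPKM in WT cells, with a log2 ratio of −0.54 that was not called, against −1.54 for Aars2. Sars likewise had a log2 ratio of −0.62 that was not called, against −1.53 for Sars2. For methionine the order was turned, with −0.83 for Mars and 0.04 for Mars2. The Aars model also carries the name of another gene, Exosc6, so how much of its level belongs to Aars is unknown. The widest differences, cytosolic minus mitochondrial on the log2 scale, were 1.55 (SE 0.63) for Eprs with Ears2 and −1.03 (SE 0.41) for Wars with Wars2. These SEs treat the errors of the paired genes as independent, and no p-value was computed for them.

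**Figure D3:**
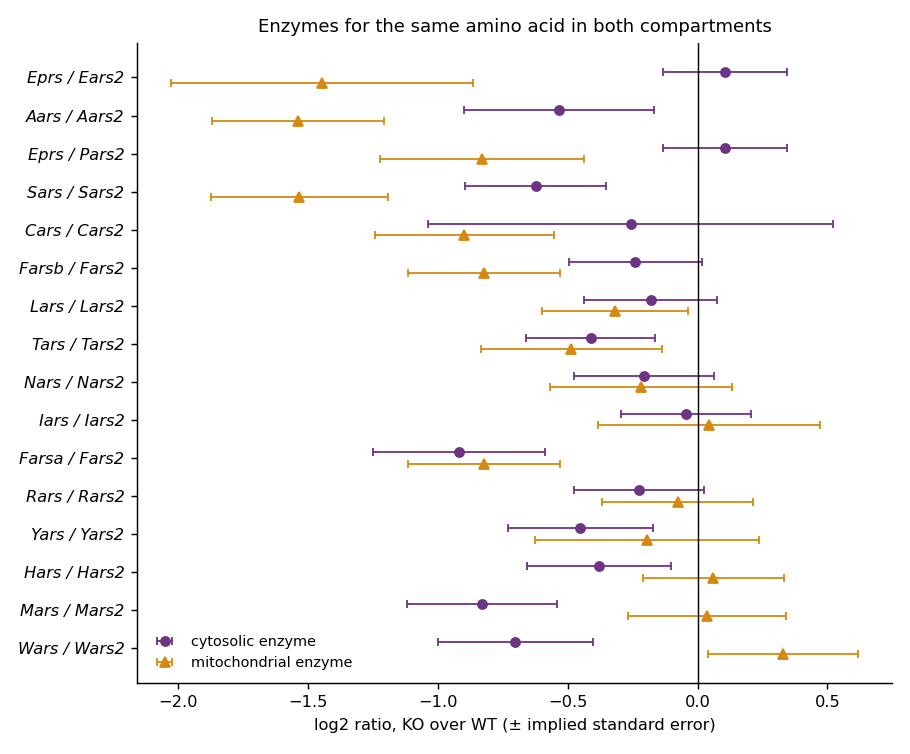
Log2 ratio of KO over WT FPKM, with the implied SE as a bar, for the cytosolic (circle) and the mitochondrial (triangle) gene of each of the 16 pairs, sorted by their difference. The mitochondrial gene lies further left in the upper 9 pairs and the cytosolic gene in the lower 7.

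Within the 35 genes, the ratio followed the base composition of the transcript. The 4 genes with the highest GC content, Vars, Sars2, Aars2 and Ears2 at 58.1% to 60.9%, were also the 4 with the lowest ratios. Called genes had a GC content of 53.7% to 60.9% with a median of 58.3%. Genes without a call ran from 41.2% to 58.1% with a median of 50.3%, so the ranges overlapped. Of the 9 genes with a GC content of 55% or more, 5 were called. Among all coding genes averaging 1 FPKM or more, 51.3% were called lower at a GC content of 55.7% to 57.9%, and 70.4% above that. Dars, with the lowest GC content of 41.2%, had a log2 ratio of −0.20. Spearman's rho between GC content and log2 ratio was −0.80 over the 34 genes with a usable reference transcript, −0.80 over 20 cytosolic and −0.85 over 14 mitochondrial genes. These coefficients describe genes that share the same 6 libraries and are not independent.

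The same relation ran through the whole table, with a rho of −0.76 over the 8991 coding genes that averaged 1 FPKM or more. When those genes were split by GC content into 10 equal groups, the ratio had a median on the log2 scale of −1.31 in the group with the highest GC content, −0.10 in the fifth group from the bottom and 0.29 in the group with the lowest. In the group with the highest GC content 70.4% of genes were called lower, against 0.222% in that with the lowest. The part of base composition in the synthetase differences was not tested beyond the removal of the trend given next.

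**Figure D4:**
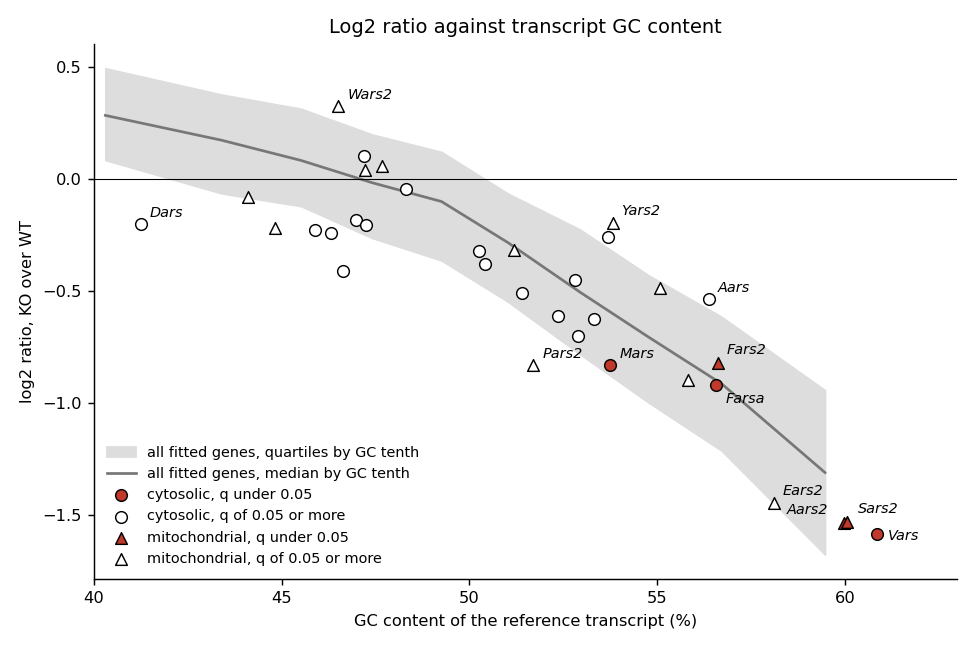
Log2 ratio of KO over WT FPKM against the GC content of the reference transcript for 34 synthetase genes, over the median and quartiles of all fitted genes in 10 equal groups of GC content. The synthetases lie along the same descending course as the other genes. The called genes are at 53.7% GC and above, where genes without a call also lie.

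A smooth trend on GC content and transcript length was fitted over all those genes and subtracted, and the remainder was set against the implied SE and adjusted over 9938 genes. After this removal 0 of 34 synthetases were called in either direction, beside 1.02% of all genes lower and 0.906% higher. Before any adjustment for the trend, 6 of these 34 had been called. The log2 remainders were −0.25 for Vars, −0.27 for Aars2, −0.19 for Sars2 and −0.28 for Mars. Farsa and Fars2 had remainders of 0.02 and 0.09. None of the 6 genes therefore kept its call.

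The median remainder was −0.18 for cytosolic and −0.06 for mitochondrial enzymes, beside −0.0026 over all 9938 genes. Remainders were under 0 for 16 of 20 cytosolic and 9 of 14 mitochondrial genes. The lowest remainders were −0.50 for Pars2 and −0.47 for Tars, and the highest was 0.47 for Yars2. The SD across the 34 genes was 0.48 for the ratios and 0.22 for the remainders. In 12 of the 15 pairs with GC content for both genes, the gene with the higher GC content had the lower ratio. The removal cannot tell a technical trend from an effect of the genotype that follows GC content.

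**Figure D5:**
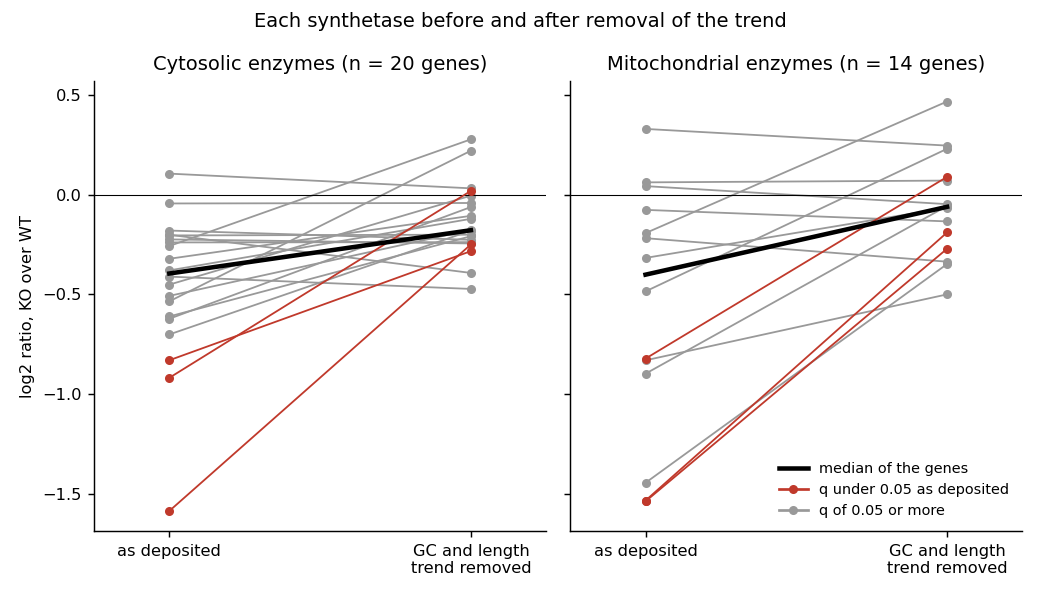
Log2 ratio of each synthetase gene as deposited and once the trend was subtracted, by compartment, for the 34 genes with a usable reference transcript. The spread across genes narrows from an SD of 0.48 to 0.22, and no gene is called after removal.

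Transcription of several synthetase genes is known to be raised by ATF4, the factor that acts when amino acids run short, through a C/EBP-ATF response element. In RefSeq promoters (GRCm38.p6, 250 bases before to 50 bases after the start), 26 of the 35 genes had an entry, 13 of each compartment. The element TGATGNAA, searched on both strands, was in 5 of 13 cytosolic promoters and in 0 of 13 mitochondrial promoters, beside 3.97% of all 32817 promoters. Matches are shown because all that were found lay in cytosolic genes, a difference that was not tested. Capitals mark the element or, where it lies on the other strand, its reverse complement.

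Aars, chr8:111033840-111033869, plus strand: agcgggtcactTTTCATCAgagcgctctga

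Gars, chr6:55037960-55037989, plus strand: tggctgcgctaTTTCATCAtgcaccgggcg

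Iars, chr13:49682126-49682155, plus strand: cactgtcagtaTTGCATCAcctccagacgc

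Tars, chr15:11399655-11399684, minus strand: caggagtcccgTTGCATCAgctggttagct

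Yars, chr4:129189895-129189924, plus strand: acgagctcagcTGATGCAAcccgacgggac

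The elements shown began between 30 bases before the start, in Gars, and 9 bases after it, in Aars. None of the 5 genes was called. Over all tested models 15.3% were called lower, so 5 genes are too few for this count to show a difference. Their log2 ratios were −0.54 for Aars, −0.32 for Gars, −0.04 for Iars, −0.41 for Tars and −0.45 for Yars. A match is a description of the letters and not a site. The promoters of Cars, Hars, Lars, Nars, Rars, Vars, Wars, Hars2 and Pars2 were not analysed here.

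Other promoter motifs were also searched on both strands. The Sp1-family GC box GGGCGG was in 18 of 26 synthetase promoters, beside 35.6% of all promoters. The ETS-family motif CCGGAAG was in 9 of 26, beside 8.86%. The E-box CACGTG was in 5 of 26, beside 7.15%, and the NRF1 motif GCGCATGC was in 2 of 26, both mitochondrial genes, beside 2.71%. The TATA box TATAAA was in 3 of 26, beside 13.6%. None of the searched motifs contains another, and no test was run on these shares. The synthetase promoters had a median GC content of 57.7%, beside 52.7% for all promoters, and the shares were not adjusted for it.

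Genes that work around the synthetases were also examined, in short lists. Over all tested models 15.3% were called lower and 1.79% higher, and the counts in these lists were not tested against those shares. None of the 3 scaffold genes of the complex was called, with a median log2 ratio of −0.56. Aimp1 had 24.8 FPKM in KO cells and 36.7 FPKM in WT cells, with q = 0.147 in the authors' deposited table. Aimp2 had the lowest ratio of the 3, with 7.83 FPKM in KO cells and 14.0 FPKM in WT cells, and Eef1e1 the highest, with 9.85 FPKM in KO cells and 14.1 FPKM in WT cells. Both had ratios within 2 SEs of 0.

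Mitochondria make glutaminyl-tRNA by amidation of a mischarged transfer RNA and formylate part of their methionyl-tRNA for initiation. None of the 4 genes of these steps was called, and their median log2 ratio was −0.06. Mtfmt, the formyltransferase, had 12.5 FPKM in KO cells and 12.2 FPKM in WT cells. Qrsl1, a subunit of the amidotransferase, had 3.13 FPKM in KO cells and 4.37 FPKM in WT cells, the lowest ratio of the list.

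Of 5 genes of the route that turns seryl-tRNA into selenocysteine and delivers it to the ribosome, Eefsec was called lower. Eefsec, the elongation factor for selenocysteine, had 13.7 FPKM in KO cells against 31.9 FPKM in WT cells, a log2 ratio of −1.22 (SE 0.26) and q = 9.22e-05 in the authors' deposited table. Sepsecs, which makes selenocysteine on the transfer RNA, had the highest ratio, with 4.22 FPKM in KO cells and 4.18 FPKM in WT cells. Eefsec had a GC content of 56.6% and was not called after removal of the trend, with a remainder of −0.34.

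None of 12 genes for the maturation and export of transfer RNA was called, and their median log2 ratio was −0.23. Ssb, the La protein that binds the ends of newly made transfer RNAs, had the highest ratio, with 189.9 FPKM in KO cells and 163 FPKM in WT cells. Tsen54, a subunit of the transfer RNA splicing endonuclease, had the lowest, with 1.11 FPKM in KO cells and 2.74 FPKM in WT cells and q = 0.0518 in the authors' deposited table.

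The amino acid response list holds Atf4, the upstream kinase gene Eif2ak4 and other genes of the response to amino acid shortage. Of its 20 tested genes, 4 were called lower and none higher, a share near the 15.3% of all tested models called lower. The median log2 ratio of the 20 was −0.59. Shmt2, which makes glycine from serine in mitochondria, had 5.98 FPKM in KO cells against 17.2 FPKM in WT cells (q = 1.43e-05 in the authors' deposited table). Phgdh, which starts serine synthesis, had 3.70 FPKM in KO cells against 9.90 FPKM in WT cells (q = 0.0185 in the authors' deposited table), and Psph, which ends it, had 5.62 FPKM in KO cells against 13.0 FPKM in WT cells (q = 0.00132 in the authors' deposited table). Slc7a5, a subunit of a transporter of large neutral amino acids, had 2.26 FPKM in KO cells against 5.16 FPKM in WT cells (q = 0.00151 in the authors' deposited table).

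Psat1, which acts between Phgdh and Psph in serine synthesis, was not called, with 15.1 FPKM in KO cells and 17.8 FPKM in WT cells. Atf4 itself had 25.1 FPKM in KO cells against 42.4 FPKM in WT cells, with q = 0.0927 in the authors' deposited table. The lowest tested ratio belonged to Atf5, at 1.30 FPKM in KO cells and 4.43 FPKM in WT cells, which was not called, and the highest to Cebpg, at 15.4 FPKM in KO cells and 12.2 FPKM in WT cells. Asns, Chac1 and Trib3, often used as readouts of the response, were at most 0.115 FPKM in either genotype and were not tested. The 4 called genes had GC contents of 53.7% to 57.4%, and none was called after removal of the trend, with remainders between −0.60 for Psph and −0.37 for Slc7a5.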

How the data were processed

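Sorted DP thymocytes were lysed for RNA with Trizol or an RNeasy kit, and sequencing libraries were prepared with TruSeq reagents, per the labels' protocols. TopHat2 and the build mm9 are named in the submitters' processing notes, and the quantification tool, annotation and strandedness are not stated in the labels or the file headers. Per the file headers, the authors deposited 1 FPKM value per genotype for each model, their log2 ratio and test statistic (both read as a score with either sign, since the ratio column holds a marker for infinity), a p-value and a q-value. FPKM divides by length and library size, and whether the authors corrected it for base composition is not stated. Because the table pools the populations, no test was run on libraries, and the depth of each is unknown. The members and lists were chosen with earlier results of these data known.

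The ratio was turned to KO over WT, and the implied SE is its size over that of the statistic. The deposited q-values were checked and equalled p-values adjusted by Benjamini-Hochberg over the tested models (largest difference 1.89e-06). Where a symbol had several models, that with the highest summed FPKM was to be kept. Transcript GC content, length and 3′ untranslated regions came from GENCODE M21 (GRCm38), 1 transcript per gene with the longest coding region, matched by symbol or RefSeq synonym, and no coordinate was converted between builds. Mars2 was left out there, because its reference transcript was longer than 1.2 times its model. The trend was a robust regression with cubic splines of 5 pieces (statsmodels 0.14.6) on genes averaging 1 FPKM or more, tested on simulated data. Values were named for every called member, the 3 highest and 3 lowest ratios and the highest and lowest FPKM of each compartment, both genes of a pair with a call, members that crossed the threshold under an alternative, and the called, highest and lowest tested genes of the other lists. Other genes were named after their values were seen. The alternatives were other q thresholds, centring, trend removal, filters on low values, a pseudocount, summed models and left-out genes. A B cell marker and a promoter match are not reported here.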

Additional observations from a re-analysis of the deposited data

How the results depend on the processing

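The count of 6 synthetases called lower was 3 at a q under 0.01, 10 at a q under 0.10, 3 after centring on the median of all tested models, 7 over models with a mean of at least 1 FPKM, and 0 after removal of either trend. The second trend, on coding-region GC content and length, was chosen after seeing the data. For cytosolic enzymes the count of 3 was 1 at 0.01, 5 at 0.10, 1 after centring and 0 after either trend. For mitochondrial enzymes the count of 3 was 2 at 0.01, 5 at 0.10, 2 after centring and 0 after either trend. Over models with a mean of at least 1 FPKM it was 3 for cytosolic and 4 for mitochondrial enzymes. None was called higher under any of these alternatives. The median log2 ratio of the cytosolic enzymes was −0.23 after centring, −0.18 after the transcript trend and −0.33 after the coding trend. That of the mitochondrial enzymes was −0.15 after centring, −0.062 after the transcript trend, −0.21 after the coding trend and −0.49 over members with a mean of at least 5 FPKM, and the difference of the medians, cytosolic minus mitochondrial, was then 0.090. After the transcript trend the sign turned for Aars (0.22), Cars (0.28), Farsa (0.018), Fars2 (0.089), Iars2 (−0.048), Tars2 (0.23) and Yars2 (0.47), and after centring for Iars (0.12) and Rars2 (0.089). Centring ended the calls of Farsa (−0.75), Mars (−0.66) and Fars2 (−0.66), and the cause was not tested. With log2 of FPKM + 1 all 35 genes kept their direction. Symbols had 1 model each, so summing models changed nothing, and leaving out Gars and Kars, or Aars and Cars2 (chosen after seeing the data, because their models carry another gene's name), moved neither median by over 0.1. No paired analysis was possible because the table holds 1 pooled value per genotype, and for the same reason no replicate could be left out and precision by depth is unknown.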
